A study of Arabidopsis thaliana with 12 samples.

Results

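SIS (Salt Induced Serine rich) is the gene AT5G02020 on chromosome 5 of Arabidopsis thaliana, named for a serine-rich protein whose transcript is induced by salt, and it is linked to salt tolerance. It was read by 1 probe set, 251039_at, out of 22746 non-control probe sets on the ATH1 GeneChip, and it is the only probe set that the platform annotation pairs with the symbol SIS. The gene was chosen because earlier results of the same arrays had it lower in ein2 and higher in aba2, so its levels in those mutants and in their wild types are a description and carry no test. The RefSeq table of assembly TAIR10.1 lists 2 transcripts for SIS, and which of them the probe set reads was not analysed here.

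Total RNA came from seedlings grown on agar with 1% sucrose after a cold treatment of the seeds, with 2 arrays in each of 6 groups. The wild types Col-7 and Col-0 were sampled at 12 days, as were the mutants etr1 (etr1-1 in the design text) and aba2 (allele gin1-3). Col-0 was sampled again at 14 days, together with ein2 (ein2-1 in the design text). No group was treated with salt, ABA or ethylene. Nothing in the labels says whether the replicates came from separate cultures, so any p-value measures only the spread between these arrays, which may be technical. Seedlings were used whole as far as the labels say, so more SIS transcript per cell and more cells with it cannot be told apart.

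Abscisic acid (ABA) is the plant hormone that accumulates under drought and salt and switches on many stress genes, and ABA2 is an enzyme of its synthesis. Ethylene is perceived by receptors such as ETR1, which hold the pathway off until they bind the gas, and EIN2 is the membrane protein that passes the signal on to the nucleus. The etr1-1 receptor cannot bind ethylene, and plants with either etr1-1 or a loss of EIN2 are insensitive to it. Salt tolerance draws on both hormones, and the series asks how their pathways act on each other.

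SIS signal was lowest in etr1 and highest in aba2, with a 16.8-fold ratio between these group means. In etr1 at 12 d the arrays read 225.8 and 123.4. In Col-0 at 12 d they read 276.9 and 320.5. In ein2 at 14 d the signals were 359.3 and 484.2. Up to this point in the order every array lay under 500, and the groups did not overlap. In Col-7 at 12 d SIS had signals of 807 and 1217. In Col-0 at 14 d it had 1267 and 1483. The aba2 arrays at 12 d stood above all others with signals of 3218 and 2639. All 6 groups were thus apart from each other, with the closest arrays of neighbouring groups 38.81 signal units apart (Col-0 at 12 d and ein2). Relative to their signal the closest were Col-7 replicate 2 (1217) and Col-0 at 14 d replicate 1 (1267), which were 50.01 units apart.

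**Figure D1:**
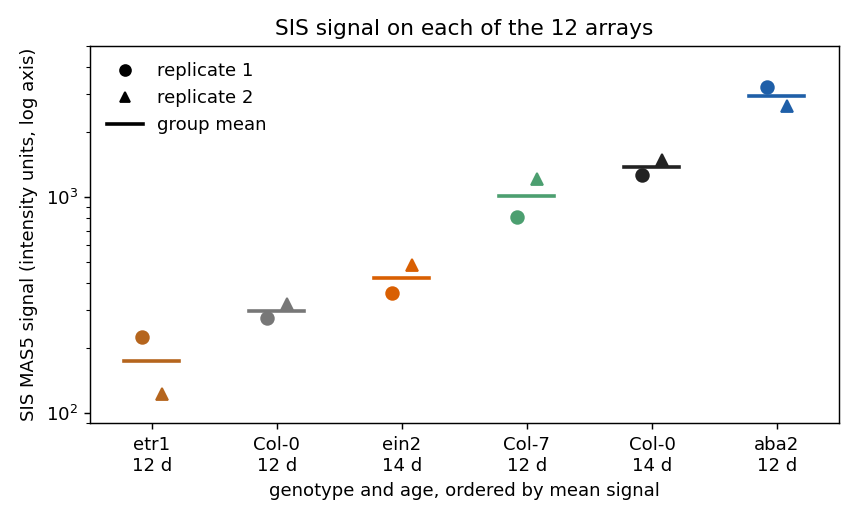
SIS signal (MAS5 intensity units, log axis) on each of the 12 arrays, by genotype and age in order of the mean. Circles are replicate 1, triangles replicate 2 and bars the mean of the 2 arrays. The groups do not overlap, from 123.4 to 225.8 in etr1 up to 2639 to 3218 in aba2.

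The group means were 174.6 ± 72.4 (SD, n = 2) in etr1, 298.7 ± 30.8 in Col-0 at 12 d, 421.7 ± 88.3 in ein2, 1012 ± 290 in Col-7, 1375 ± 153 in Col-0 at 14 d and 2928 ± 410 in aba2, each with n = 2. On the scale of log2(signal + 50), where an offset of 50 damps the noise of dim probe sets, the widest steps between neighbours in this order were from ein2 to Col-7 (1.16) and from Col-0 at 14 d to aba2 (1.06). Those steps were 1.72 and 2.99 times the summed SDs of their groups. The steps from etr1 to Col-0 at 12 d (0.67) and from Col-0 at 12 d to ein2 (0.43) were about the size of the summed SDs (1.12 and 1.07 times). The step from Col-7 to Col-0 at 14 d (0.45) was smaller than the summed SDs, at 0.808 times, although the arrays of these neighbours did not overlap. With n = 2 these SDs are themselves imprecise.

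Few probe sets were as widely and as cleanly separated. Among the 13648 probe sets that passed a filter on low signal (mean at or above 122.3, the 40th percentile), the arrays of all 6 groups were apart from each other in 30, or 0.22%. In 31 the group means had the same order as in SIS, and SIS was the single probe set with both. The range of its group means on the log2 scale was 3.76, which ranked 20 among those probe sets, where the median range was 0.52. SIS was chosen for part of this pattern, so these ranks describe it only. Its place on the single array ran from the 41.4th percentile of signals in etr1 replicate 2 to the 95.9th in aba2 replicate 1.

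The 12 arrays had nearly the same trimmed mean signal (500.04 to 500.05), and their number limits the precision. Replicate arrays differed unequally over all probe sets, with an SD of their log2 difference that ran from 0.227 in the older Col-0 through 0.248 in etr1 to 0.469 for Col-7 and 0.606 for the younger Col-0. SIS did not follow that order. Its replicate gap on the log2 scale was 0.18 in Col-0 at 12 d, which was at least as large as that of only 30.0% of probe sets there. In etr1 the gap was 0.67, at least as large as that of 98.4% of probe sets. Of the markers listed for tissues, 1 of 7 for green shoot, 2 of 7 for root, 0 of 4 for seed and 0 of 4 for flower were paired with a probe set. The group means of RCA (rubisco activase, of green tissue) ran from 20588 to 28085, so transcripts of green tissue were present. Those of PYK10 (a beta-glucosidase of roots and seedlings) ran from 10876 to 16495, and as PYK10 is not of roots alone it does not settle whether root transcripts were present. EXPA7, a root hair expansin, was dim (group means of 43.4 to 134.3) and did not pass the filter. Across the 12 arrays RCA correlated with SIS at r = 0.0096 and PYK10 at r = 0.20, and a part of tissue makeup in the levels of SIS was not tested further.

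Whether SIS depends on ethylene perception was asked by setting etr1 beside Col-0 of the same age. This comparison holds neither ein2 nor aba2, the mutants on which SIS was chosen, although the choice names no wild type for aba2 and may have used the 12 d arrays of Col-0. The SE and the p-values from all 12 arrays also rest on the spread within the groups on which SIS was chosen. They therefore describe this difference and are not independent of the choice. The mean SIS signal was 174.6 in etr1 and 298.7 in Col-0, a ratio of 1.71. Both etr1 arrays lay below both Col-0 arrays, as 35.4% of all tested probe sets had arrays that did not overlap in this comparison. The difference was -0.67 ± 0.262 (SE) on the log2 scale, with a 95% interval of -1.25 to -0.0893. It did not pass the threshold in the limma fit to all 12 arrays (adjusted p = 0.436 by Benjamini-Hochberg over all tested probe sets, two-sided; unadjusted p = 0.0277), whereas 0.256% of probe sets passed as lower. In the limma fit to only the 4 compared arrays the SE was 0.272 and the adjusted p 0.85. A difference of this size or more was seen in 4.7% of tested probe sets. With 2 arrays a group, the smallest p that an exact permutation test allows is 0.333.

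The size of this difference rested on the etr1 arrays. Without etr1 replicate 1 it was -1.0 and without etr1 replicate 2 it was -0.336 (adjusted p = 0.526 and 0.966 by limma). Against Col-7, the other wild type of that age, etr1 was lower by far more, at -2.25 ± 0.262 or a 5.8-fold ratio of signals. SIS may have been chosen on the Col-7 arrays, as the wild type of aba2, so that difference is given without a test. The labels name no wild type for a given mutant. SIS was lower in etr1 than in both, and the size differed with the wild type taken.

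In ein2 at 14 d the mean SIS signal was 421.7, against 1375 in Col-0 of the same age, a 3.26-fold ratio. The log2 difference was -1.60 ± 0.262. It ranked 53 by size among the 13648 tested probe sets, of which 0.271% passed as lower. Both ein2 arrays lay below both Col-0 arrays (the groups did not overlap in 43.3% of probe sets), and the ein2 level was close to that of the younger Col-0. Leaving out each of the 4 arrays in turn gave -1.80 to -1.41. SIS was chosen on this comparison, so nothing is read from its place in it.

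In aba2 at 12 d the mean SIS signal was 2928, against 1012 in Col-7, a 2.89-fold ratio. The log2 difference was 1.51 ± 0.262 and ranked 76 by size, where 0.249% of probe sets passed as higher and 40.2% had arrays that did not overlap. Against Col-0 at 12 d the same aba2 arrays were 9.8-fold higher (3.09 ± 0.262), and this difference ranked 3 by size among all tested probe sets. These comparisons share the aba2 arrays, and SIS was chosen on them or on arrays they use. The direction was upward against both wild types, and its size differed with the wild type taken.

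**Figure D2:**
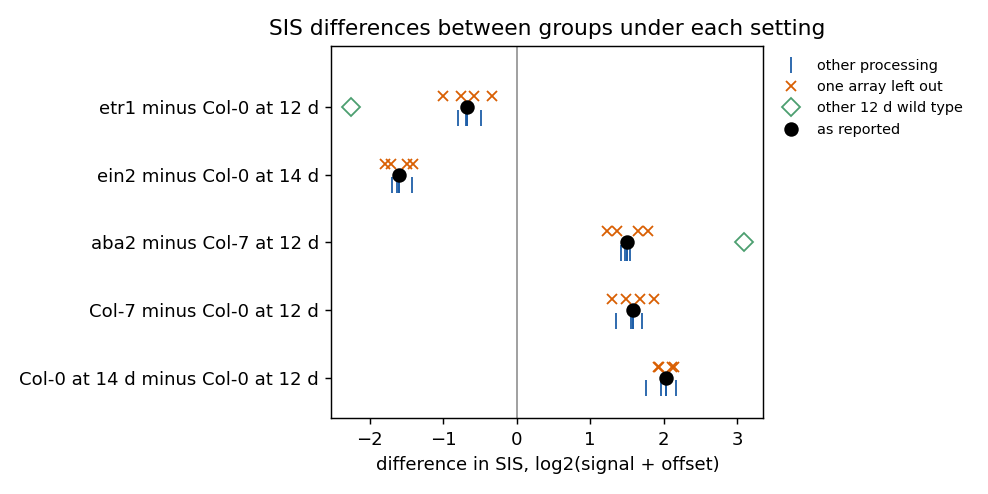
Differences in SIS between groups on the log2(signal + offset) scale. Black dots are the reported values, blue ticks other processing, orange crosses fits with one array left out and green diamonds the other 12 d wild type. The etr1 difference is -0.67 against Col-0 and -2.25 against Col-7, and the aba2 difference 1.51 against Col-7 and 3.09 against Col-0.

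SIS also differed between the wild types. Col-7 was 3.39-fold higher than Col-0 at 12 d (log2 difference 1.58 ± 0.262), and 17 of the 13648 tested probe sets had a larger difference between these wild types. By limma 0% of all probe sets passed between them (654 at an unadjusted p under 0.05), and 21.2% had arrays that did not overlap. Col-0 was 4.6-fold higher at 14 d than at 12 d (2.03 ± 0.262). In that comparison 4.61% of probe sets passed as higher. The Col-0 levels enter both, and SIS was chosen on the older Col-0 and possibly on Col-7, so both differences are given without a test.

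The genes most like SIS were sought by the Pearson correlation of log2(signal + 50) over the 12 arrays, among tested probe sets paired with 1 gene. The points share their groups of 2 arrays and the common scaling, and no p-value is given. Over all other tested probe sets, with or without a paired gene, the median correlation was -0.03. Correlations of at least 0.8 were seen in 95 of them (0.696%) and of at most -0.8 in 61 (0.447%). The 8 named genes with the highest values were AT5G12940 (r = 0.92), AT5G59080 (0.92), AT3G01490 (0.91), pEARLI4 (0.89), AT2G25190 (0.89), ATSIK (0.88), AT1G79160 (0.88) and AT5G18470 (0.88). Without the 2 arrays farthest from the median SIS level, both of aba2, their correlations were 0.766 to 0.911. The genes were picked on all 12 arrays, these 10 included.

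None of these genes spanned as wide a range as SIS. The range of their group means was 0.62 to 2.13 on the log2 scale, against 3.76 in SIS. AT5G18470 had the widest range, with a mean signal of 83.6 in etr1, 113.9 in Col-0 at 12 d, 110.5 in ein2, 168.7 in Col-7, 248.1 in Col-0 at 14 d and 515.8 in aba2. AT5G59080 had 321.3, 603 and 384.9 in the first 3 of these groups and 763.6, 837.8 and 1374 in the last 3. In these 2 genes aba2 was again the group with the highest mean and etr1 that with the lowest. In AT5G18470, however, the etr1 arrays overlapped those of Col-0 at 12 d, of ein2 and of Col-7. In each of the 2 genes the mean of Col-0 at 12 d lay above that of ein2, the reverse of SIS. In AT5G18470 the arrays of Col-0 at 12 d and ein2 overlapped. The means of AT5G12940 kept the order of SIS except for Col-7 (496.1), which lay above Col-0 at 14 d (424.9) with overlapping arrays. Its Col-7 arrays also overlapped those of aba2, and its Col-0 arrays at 12 d overlapped those of ein2. Its mean signal was 200.2 in etr1 and 651.8 in aba2.

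**Figure D3:**
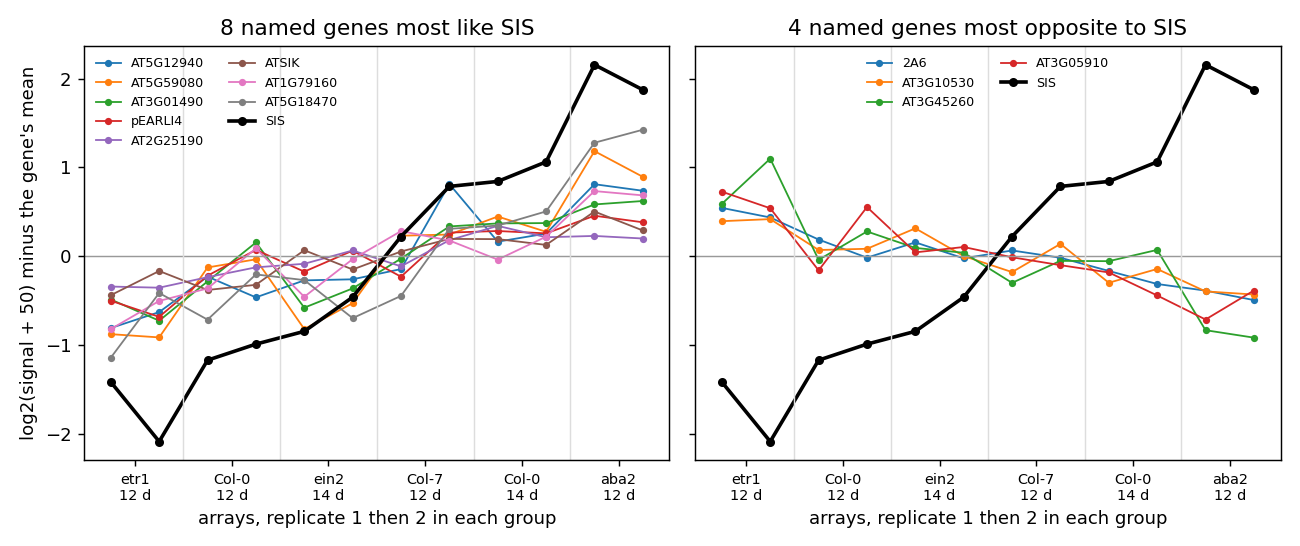
Levels on the 12 arrays of SIS (black) with the 8 named genes most like it (left) and the 4 most opposite (right), as log2(signal + 50) minus each gene's mean. Groups are in the order of the SIS mean. The other genes follow or mirror SIS over a narrower range, at most 2.13 against 3.76 between group means.

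Of the 8 genes, 7 were lower in etr1 than in Col-0 at 12 d, the exception being ATSIK at 0.05. All 8 were lower in ein2 than in Col-0 at 14 d (median log2 difference -0.405, from AT5G59080 at -1.03 to ATSIK at -0.20), and all 8 were higher in aba2 than in Col-7 (median 0.443, up to AT5G18470 at 1.42). They were picked for their likeness to SIS on these same arrays, so these directions describe the pick. The 4 named genes that ran most opposite were 2A6 (r = -0.91), AT3G10530 (-0.88), AT3G45260 (-0.86) and AT3G05910 (-0.86). The mean signal of 2A6 was 672.1 in etr1, 496.8 in Col-0 at 12 d, 489.1 in ein2, 472.7 in Col-7, 386.1 in the older Col-0 and 329.1 in aba2. These means have the order of SIS turned round, though the arrays of Col-0 at 12 d, ein2 and Col-7 overlapped.

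The genes beside SIS on chromosome 5 gave little to set against it. Of the 2 annotated genes on each side, 1 was paired with a probe set of its own, and the others were not analysed here. This gene, AT5G02000, was dim in every group, with mean signals of 6.52 to 33.6, and did not pass the filter.

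The pathways around SIS were described from lists of 101 genes, of which 13 had a paired probe set and 11 passed the filter. The list of salt transport and the SOS pathway, the sodium export system of plants (13 genes), and the list of ABA synthesis, breakdown and signalling (24 genes) had 0 paired members each, so the transcripts of ABA2 itself were not analysed here. The list of salt, drought and ABA responsive genes had 5 of 30 paired, that of ethylene perception, signalling and response 4 of 15, and that of rapid stress response genes 4 of 19. LEA4-5 and CML37 were paired but too dim to be tested. The lists were made with earlier results of these data known. The counts, medians and p-values of their members below therefore describe these genes and are no independent test.

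In etr1 against Col-0 at 12 d, 1 of the 11 tested members passed, as lower, against 0.462% of all probe sets in either direction. It was ARL (ARGOS-like, a gene of organ growth), with mean signals of 379.9 and 1219 and a log2 difference of -1.55 ± 0.197 (adjusted p = 0.0103 by limma). When either etr1 array was left out ARL did not pass, and without Col-0 replicate 1 RTE1, a regulator of the receptor ETR1, passed as well at -0.88. With all arrays RTE1 had -0.74 ± 0.169, PDF1.2 (a defensin of ethylene and jasmonate responses) -1.0 ± 0.713 and EIN3 (the transcription factor downstream of EIN2) -0.16. The PDF1.2 arrays of etr1 and Col-0 overlapped. Of the dehydration genes, the dehydrin COR47 had -0.88, COR15B -0.86 and LTI30, another dehydrin, -0.49, none of which passed. Of the rapid stress genes, CML38 (a calmodulin-like protein) had 1.54 ± 0.367, STZ (a zinc finger repressor induced by salt) -0.32 and CML42 -0.04. The median of the 11 members was -0.485, where the median of all tested probe sets was 0.0137, and SIS at -0.67 lay among the members. As the lists were made with earlier results known, this describes the listed genes only.

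In ein2 against Col-0 at 14 d, 1 of the 11 passed, as lower, against 0.374% of all probe sets. This was again ARL (-1.99 ± 0.197, adjusted p = 0.00173 by limma), with mean signals of 461.8 in ein2 and 1990 in Col-0. The median of the 11 members was -0.089 and that of all probe sets -0.0046. None of the 4 tested dehydration genes passed by limma (1 at an unadjusted p under 0.05), and the values were -0.35 for COR47, -0.16 for LTI30 and 0.62 for COR15B. STZ had 0.13 and CML38 0.05. STZ was bright in both 14 d groups (4864 in ein2 and 4247 in Col-0) and dimmer in each 12 d group (482.4 to 2088).

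In aba2 against Col-7, 1 of the 11 passed, as higher, against 0.454% of all probe sets. It was CML42, a calmodulin-like calcium sensor, with mean signals of 694.9 in aba2 and 204.8 in Col-7 (1.56 ± 0.222, adjusted p = 0.0196 by limma). It did not pass without either aba2 array or without Col-7 replicate 1. The median of the members was 0.419, against -0.0042 over all probe sets, with LTI30 at 0.78, COR47 at 0.42, COR15B at -0.23 and ARL at 0.42. COR15A, a cold and ABA induced gene of chloroplast protection that was singled out after its values were seen, ran against SIS in both mutants on which SIS was chosen. It had -2.44 ± 0.461 in aba2 and 1.59 ± 0.461 in ein2, and neither passed (adjusted p = 0.0563 and 0.395 by limma).

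**Figure D4:**
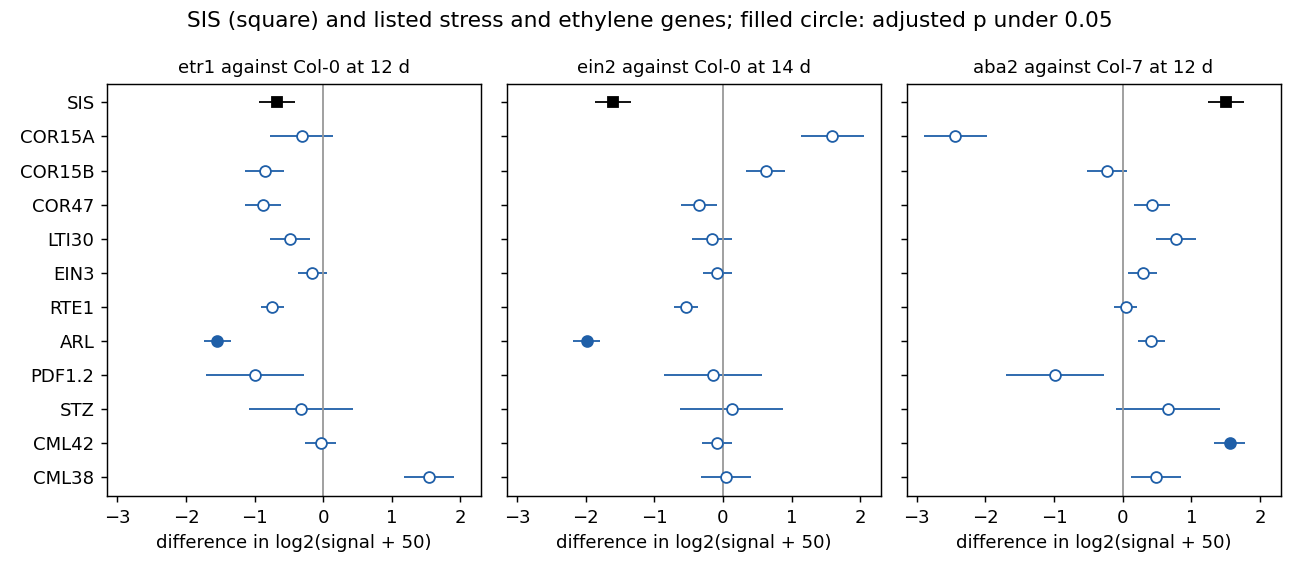
Differences of SIS (black square) and of the 11 tested list members (circles) in the 3 mutant comparisons, as log2(signal + 50) with standard errors from limma. Filled circles passed an adjusted p of 0.05: ARL in etr1 (-1.55) and ein2 (-1.99) and CML42 in aba2 (1.56). SIS is shown without a call.

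Over the 12 arrays, the tested list members most like SIS were LTI30 (r = 0.80), CML42 (0.75), ARL (0.69) and COR47 (0.65), and COR15A was the most opposite (r = -0.55). LTI30 had mean signals of 583.4 in etr1 and 1709 in aba2, the lowest and the highest groups for SIS too. Unlike in SIS, its etr1 arrays overlapped those of Col-0 at 12 d. ARL was low in both ethylene-insensitive mutants (379.9 and 461.8) and lay between 940 and 1990 in the other 4 groups. SIS differed from ARL in Col-0 at 12 d, where ARL had 1219 and SIS 298.7. Signals of different probe sets are not comparable as levels, so only the order of groups within each gene is meant.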

How the data were processed

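The values are MAS5 signal intensity, which the authors made with Affymetrix Microarray Suite version 5.0, per the labels and the design text, and deposited on a linear scale as 1 table of 12 arrays. Equal trimmed means show that the deposited intensities were already scaled per array. Here they were brought to an exactly common mean (2% trimmed at each end), 50 was added and log2 taken. The 64 controls and probe sets with a mean below the 40th percentile were left out. Of 22746 probe sets, 13513 were paired with 1 gene by the platform annotation, 503 with several and 8730 with none; symbols came from RefSeq. Group means were fitted with limma 3.58.1 in R 4.3.3 to all 12 arrays (eBayes with trend, two-sided, Benjamini-Hochberg over 13648 probe sets, threshold 0.05). On simulated data for etr1 against Col-0 at 12 d, the procedure recovered 59% of 2-fold and 90% of 4-fold changes. The simulated noise was independent with 1 spread per probe set, so it lacked the unequal replicate spreads of these arrays. The limma fit, too, takes 1 spread per probe set for all groups.

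SIS and the gene lists were chosen with earlier results of these data known. Named genes are SIS, its 2 neighbours on each side, the 8 most like and 4 most opposite named genes, and list members that were called or had the smallest p-values in etr1 (up to 3 per list). A planned search for similar proteins and promoter motifs was not run, since sequences were not analysed here. Replicate numbers stand in the titles, and no label says that they mark a shared batch. The alternatives tried were an offset of 10 or 150, normalization by quantiles, a filter at the 60th percentile or none, eBayes with no trend, the replicate number as a block, the 4 compared arrays alone, each array left out and the other wild type.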

Additional observations from a re-analysis of the deposited data

How the results depend on the processing

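The sign of each of the 5 SIS differences was the same under every alternative run. The arrays of the compared groups did not overlap, so leaving out an array or changing the offset could not turn a sign. The filter, trend and block settings left the estimates unchanged. The constant sign is therefore no support for these differences. With one array left out, SIS ran from -1.0 to -0.336 in etr1, from -1.80 to -1.41 in ein2, from 1.23 to 1.79 in aba2, from 1.30 to 1.86 between Col-7 and Col-0, and from 1.92 to 2.14 between the ages of Col-0. The other wild type moved it most, to -2.25 in etr1 (Col-7) and 3.09 in aba2 (Col-0), both given without a test because SIS may have been chosen on those arrays. Under the 12 alternatives that kept Col-0 the etr1 difference did not pass (adjusted p = 0.228 to 0.966 by limma). An offset of 150 lowered the age difference to 1.76, as adding a larger constant must. The count of list members called was 0 to 2 in etr1 and 0 to 1 in aba2 with one array left out, and stayed 1 in ein2. With only the 4 compared arrays it was 0 in etr1 (5 at an unadjusted p under 0.05 by limma), 2 in ein2 (ARL and COR15A) and 0 in aba2 (3 unadjusted); fewer arrays went into those fits. With the replicate number as a block it was 2 in aba2, where COR15A passed at -2.44, and 1 in etr1 and ein2, while the SIS difference in etr1 was -0.67 (adjusted p = 0.423). Deviations of same-numbered arrays correlated at -0.0177 (etr1 and Col-0) and -0.0724 (ein2 and Col-0), but at 0.341 for aba2 and Col-7. The numbers were not taken as pairs because no label says that they mark a shared batch. In aba2 and Col-7 same-numbered arrays thus shared a part of their deviations, which the main fit does not account for. The number of arrays, 2 per group, limits all of these values.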

Other observations

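Several probe sets with no paired gene followed SIS as closely as the named ones. Of the 20 probe sets with the highest correlation with SIS over the 12 arrays, 7 were paired with no gene. Among all 22746 non-control probe sets 8730 had no paired gene. The 20 were drawn from the 13648 tested probe sets, for which that number was not counted. The count of 7 is therefore not read as a trait of SIS. The closest of all was 256793_at (r = 0.93), with a mean signal of 216 in etr1, 256.7 in Col-0 at 12 d, 254.2 in ein2, 335.8 in Col-7, 473.9 in Col-0 at 14 d and 499.2 in aba2. The widest range among the 7 was that of 246932_at (2.09 on the log2 scale), whose mean signal was 266.8 in etr1, 529.6 in Col-7 and 1212 in aba2, but lower in ein2 (234.5) than in any other group. Both were picked with their values in view.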
